A study of Mus musculus with 19 samples.

Results

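Matrix proteases and their inhibitors were followed through 19 mouse mammary tumours driven by activated ErbB2. The set holds 39 genes chosen by name: matrix metalloproteinases, ADAM and ADAMTS metalloproteinases, plasminogen activators with their receptor, cathepsins B and K, the TIMPs, Reck and Serpine2. Of the 39, 36 had a probe set annotated with that symbol alone, out of 22180 genes in all, and the probe set with the highest mean stood for a gene with several. Mmp15, Adamts2 and Serpine2 were not analysed here. A filter required a value at or above the table's median, 4.38 on the log2 scale, on at least 4 arrays, and 34 of the 36 passed it among 14231 genes tested. Mmp7 (3.49 to 4.47 over the tumours) and Mmp10 (3.72 to 4.62) reached that value on 1 array each and are described by level only.

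All 19 tumours came from MMTV-NIC mice, in which the MMTV promoter drives activated ErbB2 together with Cre recombinase in mammary epithelium, so the deletion is directed at the epithelium and not at stromal cells. The groups were NIC WT (5 tumours, called intact here), NIC itgb1 fl/fl (4, beta 1 integrin knockout), NIC itgb3 fl/fl (4, beta 3 integrin knockout) and NIC itgb1 fl/fl itgb3 fl/fl (6, labelled double knockout). Total RNA of flash frozen, end-burden tumours was hybridised 1 tumour to an array. The animals' age and sex and whether the tumours of a group came from separate animals are not stated in the labels, so p-values measure the spread between these tumours. Group numbers such as replicate 5 only name a tumour.

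Proteases of the matrix are made as inactive precursors and cut collagens, laminins, proteoglycans or cell surface proteins once activated. Secreted and membrane-bound matrix metalloproteinases and the ADAMTS enzymes act on the matrix itself, ADAMs mostly release the outer parts of membrane proteins, and the urokinase system turns plasminogen into plasmin, which activates other proteases. TIMPs bind the active sites of these metalloenzymes and Reck restrains several of them at the cell surface. In mammary tumours much of this protease RNA is known to come from fibroblasts and macrophages rather than from the tumour epithelium.

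The labels were checked on the targeted genes first. Itgb1, the beta subunit shared by most matrix receptors, was at 9.83 to 10.32 in intact tumours, 8.39 to 8.98 in Itgb1 knockouts, 9.81 to 10.26 in the Itgb3 knockouts and 7.93 to 9.20 in those labelled double knockout. The Itgb3 transcript was at 7.72 to 8.41 in intact tumours and 6.34 to 7.40 in the Itgb3 knockouts, but at 7.69 to 8.55 in the tumours labelled double knockout (difference from intact 0.01, limma adjusted p = 0.986). That level goes against that label, and every direction given for the group carries this limit. The epithelial markers Epcam (group means 11.24 to 11.40), Krt8 (9.95 to 10.49) and Krt18 (11.25 to 11.52) were high in all groups, while the luminal markers Krt19 (4.81 to 5.06) and Foxa1 (4.06 to 4.73) lay near the filter value. Array medians ran from 4.32 to 4.48, and precision is limited by how many arrays each group has.

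In the tumours labelled double knockout 2 ADAMTS proteases were the members that stood clearest from the intact tumours. Adamts12, a secreted ADAMTS protease that cuts cartilage oligomeric matrix protein, rose 1.89-fold and was the 1 member of 34 that passed an adjusted p of 0.05, against 0.386% of all genes. Adamts4, an aggrecanase, was 1.72-fold higher and did not pass (limma adjusted p = 0.0719). Differences were above 0 for 26 of the 34 members, against 55.9% of all genes, the same count as in the Itgb1 knockouts, and the median member difference was 0.29 against 0.03 over all genes. At an unadjusted p under 0.05, 11 members were higher, against 11.2% of all genes, and 0 were lower, against 5.68%. The 11 were Adamts12, Adamts4, Adamts1, Adamts9, Adam9, Adam10, Adam19, Plaur, Mmp14, Ctsk and Timp1. In 2 members, Adamts12 and Adamts4, all 6 tumours lay above all 5 intact ones, which 1.19% of all genes showed.

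**Figure D1:**
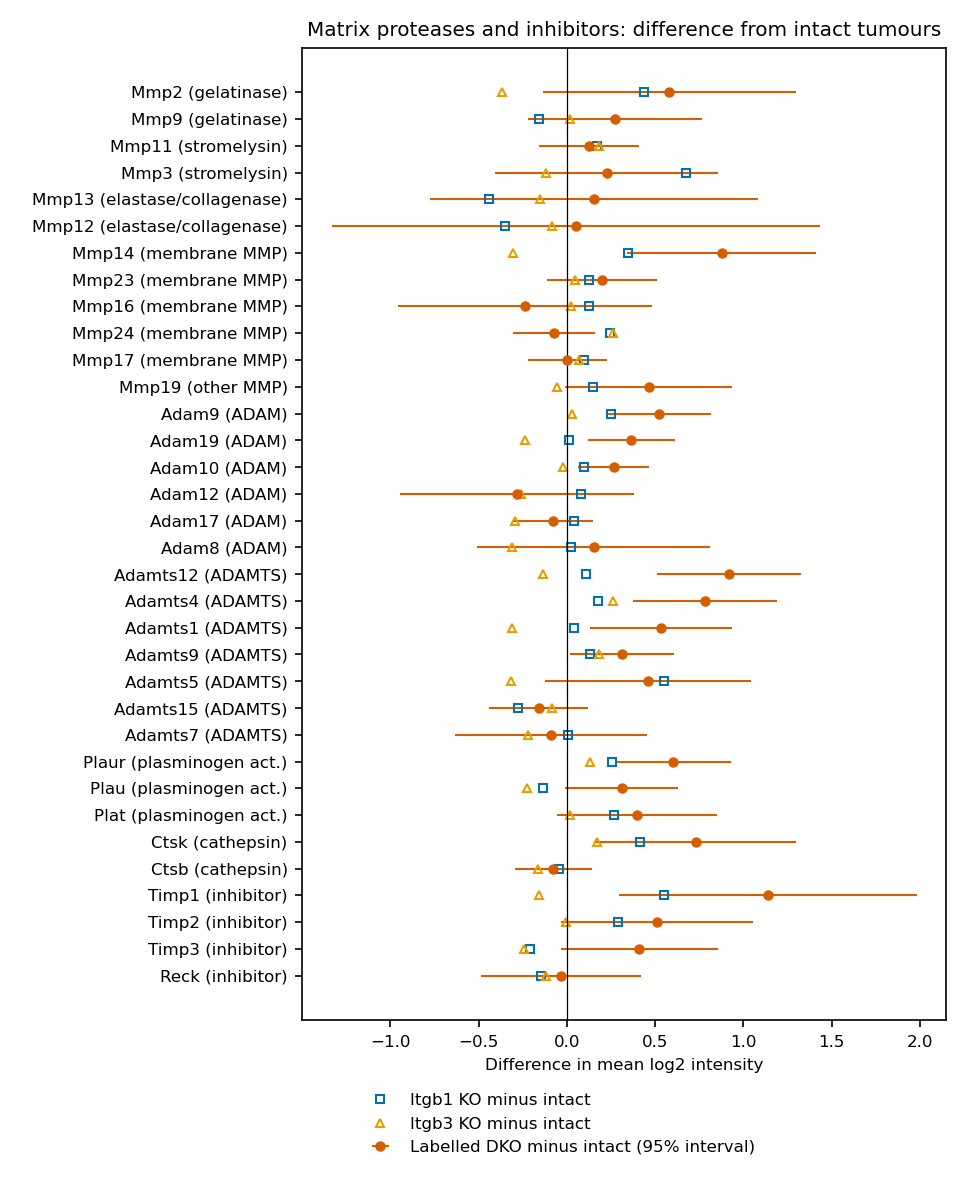
Difference in mean log2 intensity from the 5 intact tumours for the 34 members tested, ordered by role. Filled circles with 95% intervals are the 6 tumours labelled double knockout, open squares the 4 Itgb1 knockouts and open triangles the 4 Itgb3 knockouts. Adamts12 (0.92) and Timp1 (1.14) have large differences in the labelled double knockouts, and the interval of Timp1 is the wider.

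Adamts12 was at 6.33, 6.21, 6.52, 6.36 and 6.27 in the 5 intact tumours, 6.75, 6.13, 6.68 and 6.24 in the Itgb1 knockouts and 6.14, 5.86, 6.40 and 6.43 in the Itgb3 knockouts. Its 6 values in the tumours labelled double knockout were 7.13, 7.07, 7.17, 7.5, 6.61 and 8.06. Replicate 6 was the highest and replicate 5, at 6.61, lay just above the highest intact tumour and below 2 of the Itgb1 knockouts. The difference from intact was 0.92 (SE 0.195, 95% interval 0.51 to 1.33, limma adjusted p = 0.0499). That p stands at the threshold: the call held in 4 of 10 other settings and in 4 of 19 fits that left out a tumour (intact 3, Itgb1 knockout 1, or labelled double knockout 5 or 6), with the difference between 0.76 and 1.05. Adamts12 lies on chromosome 15, and the 150 bases before its annotated start (chr15:11064623-11064772, plus strand, RefSeq, GRCm38.p6) are shown because this gene is the member that passed against intact tumours:
Adamts12: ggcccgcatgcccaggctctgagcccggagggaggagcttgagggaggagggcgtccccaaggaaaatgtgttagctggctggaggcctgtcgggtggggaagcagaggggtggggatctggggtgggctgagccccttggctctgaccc
The table's window for this gene held no match to the AP-1 motif TGANTCA, which says only that these letters are not in it.

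Adamts4 stood at 4.64, 4.49, 3.95, 4.95 and 4.69 in the intact tumours, 5.03, 4.21, 4.68 and 4.96 in the Itgb1 knockouts and 5.04, 4.37, 5.05 and 4.75 in the Itgb3 knockouts. The tumours labelled double knockout ran from 4.99 to 5.85 (median 5.23), each above the highest intact tumour (difference 0.78, SE 0.194). Intact replicate 3 was the lowest of all 19, and the single knockouts overlapped both other groups. Adamts1, a protease of versican and aggrecan that also binds VEGF, was at 5.05, 5.0, 5.21, 5.39 and 5.58 in the intact tumours and 5.53, 5.01, 5.16 and 5.43 in the Itgb1 knockouts. Its Itgb3 knockout values were 4.96, 4.86, 4.97 and 4.94, all below the lowest intact tumour. The tumours labelled double knockout ran from 5.06 to 6.58 (median 5.78), and 4 of 6 lay above every intact tumour (difference 0.53, SE 0.192, limma adjusted p = 0.176).

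None of the other ADAMTS members passed. Adamts9, which cuts versican and aggrecan, was at 5.05 ± 0.29 (SD, n = 5) in intact tumours and 5.36 ± 0.26 (n = 6) in the labelled double knockouts (difference 0.31, SE 0.141, limma adjusted p = 0.272). Adamts5, the main aggrecanase of mouse cartilage, was at 4.43 ± 0.27 and 4.89 ± 0.67 (difference 0.46, limma adjusted p = 0.415). Both of these groups overlapped. Adamts7 (6.27 ± 0.50 and 6.18 ± 0.47, difference −0.09) and Adamts15 (4.77 ± 0.20 and 4.61 ± 0.27, difference −0.16) had values below 0. Of the 7 ADAMTS genes tested, 4 were higher at an unadjusted p under 0.05, against 11.2% of all genes, and 0 lower, against 5.68%. Their median difference was 0.46 against 0.03 over all genes.

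**Figure D2:**
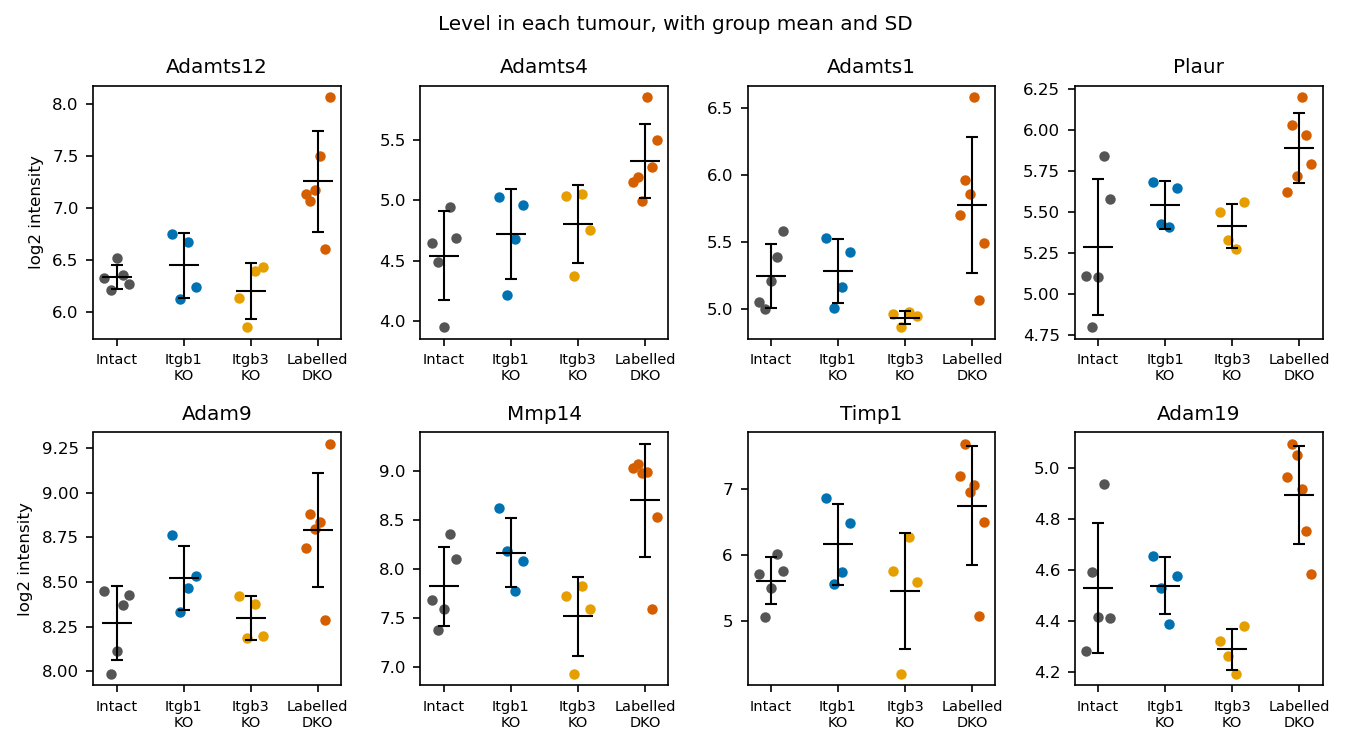
Level (log2 intensity) in each of the 19 tumours for 8 members, by group, with the group mean and SD as bars. For Adamts12 and Adamts4 the labelled double knockout points all sit above the intact points. For Mmp14 and Timp1 replicate 5 of that group, at 7.59 and 5.07, lies apart from the other 5.

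ADAMs release growth factors and other surface proteins. Among them 3 of 6 were higher at an unadjusted p under 0.05, against 11.2% of all genes, and none passed the adjusted test. Adam9, a sheddase with a disintegrin domain, was at 8.45, 7.99, 8.11, 8.37 and 8.43 in the intact tumours, 8.76, 8.33, 8.46 and 8.53 in the Itgb1 knockouts and 8.42, 8.19, 8.38 and 8.20 in the Itgb3 knockouts. In the tumours labelled double knockout it ran from 8.28 to 9.27 (median 8.81), with 5 of 6 above every intact tumour and replicate 5 within their range (difference 0.52, SE 0.141, limma adjusted p = 0.0873). Without that replicate the difference was 0.62 and passed (limma adjusted p = 0.0270). This was the 1 pass in 19 fits that left out a tumour, and 0 of 10 other settings passed.

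Adam10, the protease that cuts Notch receptors and E-cadherin, varied little. It was at 9.95, 9.51, 9.79, 9.68 and 9.61 in the intact tumours, 9.94, 9.74, 9.78 and 9.77 in the Itgb1 knockouts and 9.58, 9.72, 9.71 and 9.74 in the Itgb3 knockouts. The labelled double knockouts ran from 9.73 to 10.13 (median 9.996). The groups overlapped, and 3 of 6 lay above every intact tumour (difference 0.27, SE 0.0967, limma adjusted p = 0.179). Adam19, which sheds neuregulin, was at 4.28, 4.59, 4.42, 4.94 and 4.41 in the intact tumours, 4.66, 4.53, 4.39 and 4.58 in the Itgb1 knockouts and 4.32, 4.26, 4.20 and 4.38 in the Itgb3 knockouts, where all 4 values were at or near the filter value. The tumours labelled double knockout ran from 4.59 to 5.09 (median 4.94), with intact replicate 4 among them (difference 0.37, SE 0.117, limma adjusted p = 0.138). A second probe set of Adam19 was under the filter on every array and differed by −0.06.

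Adam17, the enzyme that releases TNF and the ErbB ligands, was at 8.33, 8.41, 8.0, 8.57 and 8.58 in the intact tumours, 8.40, 8.40, 8.46 and 8.41 in Itgb1 knockouts, 8.16, 7.84, 8.17 and 8.15 in the Itgb3 knockouts and 8.05 to 8.43 (median 8.33) in the labelled double knockouts (difference −0.08, SE 0.107, limma adjusted p = 0.750). Adam8, found mainly on leukocytes, had means of 5.89 ± 0.65 and 6.04 ± 0.41 in the intact and labelled double knockout tumours (difference 0.15). Adam12, an enzyme of mesenchymal cells, had 6.96 ± 0.47 and 6.68 ± 0.65 (difference −0.28), with replicate 6 of the latter, at 5.59, the lowest of all 19 tumours. The groups overlapped for each of the 3.

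The urokinase system was followed through its receptor and both activators. Plaur, the urokinase receptor, was at 5.11, 4.80, 5.10, 5.84 and 5.58 in the intact tumours, 5.68, 5.43, 5.41 and 5.65 in the Itgb1 knockouts and 5.50, 5.33, 5.27 and 5.56 in the Itgb3 knockouts. The tumours labelled double knockout ran from 5.62 to 6.20 (median 5.88), with 3 of 6 above the highest intact tumour, replicate 4 (difference 0.60, SE 0.156, limma adjusted p = 0.0795). Without that intact tumour the difference was 0.74 and passed (limma adjusted p = 0.0379). Of 19 fits that left out a tumour only this 1 passed, and 0 of 10 other settings did. Plau, urokinase itself, was at 6.54 ± 0.31 (SD, n = 5) in intact tumours and within 6.73 to 7.05 (median 6.81) in the labelled double knockouts, the narrowest spread of the 4 groups for this gene (difference 0.31, limma adjusted p = 0.311). Plat, the tissue-type activator, was at 6.03 ± 0.54 and 6.42 ± 0.25 (difference 0.40). Across the 19 tumours, on deviations from group means, Plau and Plaur rose and fell together (r = 0.684, rho = 0.658, adjusted permutation p = 0.00840 and 0.00941, 7 pairs tested).

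Mmp14, the membrane-anchored collagenase that activates pro-Mmp2, was at 7.69, 7.37, 7.59, 8.35 and 8.10 in the intact tumours, 8.62, 8.18, 7.77 and 8.08 in the Itgb1 knockouts and 7.72, 6.93, 7.83 and 7.59 in the Itgb3 knockouts. In the labelled double knockouts its values were 9.03, 9.07, 8.98, 8.98, 7.59 and 8.53. In 5 of the 6 it lay above every intact tumour, and replicate 5 was within their range (difference 0.88, SE 0.256, limma adjusted p = 0.114). Without replicate 5 the difference was 1.10 and passed (limma adjusted p = 0.0179). Only this 1 of 19 fits that left out a tumour passed, and 0 of 10 other settings did. The other membrane-type members had smaller differences: Mmp16 (7.20 ± 0.87 in intact, 6.96 ± 0.43 in labelled double knockout tumours), Mmp17 (4.81 ± 0.19 and 4.81 ± 0.18), Mmp23 (5.02 ± 0.24 and 5.22 ± 0.33) and Mmp24 (5.15 ± 0.25 and 5.07 ± 0.15) differed by −0.24 to 0.20.

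The gelatinases Mmp2 and Mmp9, which cut denatured collagen and collagen IV, did not pass. Mmp2 was at 7.0 ± 0.61 in intact and 7.58 ± 0.61 in labelled double knockout tumours (difference 0.58, limma adjusted p = 0.40), and Mmp9, near the filter value, at 4.32 ± 0.31 and 4.59 ± 0.63 (difference 0.27). Mmp2 and Mmp14 were correlated over the tumours on deviations from group means (r = 0.775, rho = 0.760, adjusted permutation p = 0.00217 and 0.00490). Mmp19, a widely expressed MMP, was at 5.60 ± 0.48 and 6.06 ± 0.31 (difference 0.46, limma adjusted p = 0.307). Mmp11, a stromelysin of stromal cells next to tumour epithelium, was at 5.21 ± 0.28 and 5.34 ± 0.19 (difference 0.13), and its second probe set differed by −0.05.

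A cluster of secreted MMP genes on chromosome 9 holds Mmp3, Mmp7, Mmp10, Mmp12 and Mmp13. These genes are textbook targets of AP-1, the Fos and Jun dimer, so their promoters were searched for TGANTCA, which reads the same on both strands. RefSeq windows of 300 bases (250 before to 50 after the start, GRCm38.p6) were given for 25 of the 39 members, 4 of them with several starts. The motif was in a window of 7 of the 25, against 8.97% of 27025 genes and 7.81% of 32851 windows, and no other motif was searched. The 7 are printed with the motif in capitals and 17 bases on each side, because the members of the cluster carry it close to the start. All lie on the plus strand, and their places on GRCm38.p6 are chr9:7445759-7445799, chr9:7692010-7692050, chr9:7502262-7502302, chr9:7347313-7347353, chr9:7272462-7272502, chr7:24462397-24462437 and chr11:46055836-46055876 in the order of the lines:
Mmp3: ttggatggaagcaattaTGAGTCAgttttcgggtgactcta
Mmp7: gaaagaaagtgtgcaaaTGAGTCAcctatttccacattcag
Mmp10: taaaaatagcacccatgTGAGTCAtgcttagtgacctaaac
Mmp12: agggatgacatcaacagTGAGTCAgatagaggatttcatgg
Mmp13: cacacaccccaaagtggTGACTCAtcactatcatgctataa
Plaur: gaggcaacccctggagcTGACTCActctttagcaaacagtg
Adam19: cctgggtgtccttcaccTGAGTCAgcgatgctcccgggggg
Counted with −1 as the base before the start, the motif began at −46 in Mmp3, −63 in Mmp7, −63 in Mmp10, −44 in Mmp12, −35 in Mmp13, −69 in Plaur and −131 in Adam19. In Mmp7, Mmp12 and Adam19 it stood at 1 of several annotated starts, and the windows of their other starts held none. A match is a description of the letters and not a site of binding.

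The RNA of Mmp12 and Mmp13 ranged widely within groups. Mmp12, macrophage elastase, ran from 5.25 to 8.77 and had an SD of 1.5 in the intact tumours alone, with means of 7.05, 6.70, 6.97 and 7.10 in intact, Itgb1 knockout, Itgb3 knockout and labelled double knockout tumours. Mmp13, a collagenase, ran from 4.07 to 6.97 (means 5.51, 5.07, 5.36 and 5.67 in the same order). Mmp3, stromelysin, was at 3.82, 3.44, 3.60, 4.49 and 4.22 in the intact tumours, 4.54, 4.47, 4.62 and 4.73 in Itgb1 knockouts, 3.57, 3.24, 5.06 and 3.32 in the Itgb3 knockouts and 3.41 to 4.73 (median 4.31) in the labelled double knockouts. Many of these Mmp3 values were under the filter value, and its Itgb3 knockout group held both the lowest and the highest of the 19. Among the 5 tested members with the motif (Mmp3, Mmp12, Mmp13, Plaur and Adam19), 10 pairs were compared on deviations from group means, a choice made after seeing the data. Mmp12 and Mmp13 had the highest r (0.659, rho = 0.612), with adjusted permutation p = 0.0677 and 0.0690, and none of the 10 passed.

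Of the cathepsins, Ctsk, the collagen-cutting cathepsin of osteoclasts and fibroblasts, was at 4.96, 5.34, 4.80, 5.64 and 5.14 in the intact tumours, 6.01, 5.48, 5.48 and 5.39 in the Itgb1 knockouts and 5.45, 4.78, 5.70 and 5.47 in the Itgb3 knockouts. It ran from 4.85 to 6.71 (median 6.0) in the labelled double knockouts, with 4 of 6 above every intact tumour and replicate 5 near the bottom of the intact range (difference 0.73, SE 0.271, limma adjusted p = 0.183). Ctsb, a lysosomal protease, was steady at 11.92 ± 0.21 and 11.85 ± 0.16 (difference −0.08).

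None of the 4 inhibitors tested passed against intact tumours. Timp1, the inducible TIMP, was at 5.71, 5.06, 5.50, 6.02 and 5.75 in the intact tumours, 6.86, 5.55, 5.74 and 6.49 in the Itgb1 knockouts and 5.75, 4.19, 6.26 and 5.59 in the Itgb3 knockouts. Its values in the labelled double knockouts were 7.19, 7.68, 6.95, 7.06, 5.07 and 6.5, so 5 of 6 lay above every intact tumour and replicate 5 was level with the lowest (difference 1.14, SE 0.403, limma adjusted p = 0.171). Without replicate 5 the difference was 1.47 and passed (limma adjusted p = 0.0482). That was 1 of 19 fits that left out a tumour, the others did not pass, and 0 of 10 other settings did.

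Timp2, which both inhibits Mmp14 and takes part with it in activating pro-Mmp2, was at 7.12, 7.44, 7.86, 8.17 and 7.95 in the intact tumours, 8.18, 8.23, 7.39 and 8.20 in Itgb1 knockouts, 7.55, 7.53, 8.30 and 7.45 in the Itgb3 knockouts and 7.23 to 8.87 (median 8.34) in the labelled double knockouts (difference 0.51, SE 0.259, limma adjusted p = 0.325). Timp3, the matrix-bound TIMP that inhibits Adam17 and the aggrecanases, was at 6.96, 7.76, 7.67, 7.59 and 7.61 in the intact tumours and 7.28, 7.48, 7.44 and 7.04 in the Itgb1 knockouts. Its Itgb3 knockout values were 7.38, 6.89, 7.57 and 7.25, and the labelled double knockouts ran from 7.24 to 8.70 (median 7.96) (difference 0.41, SE 0.211, limma adjusted p = 0.331). For both, 4 of the 6 labelled double knockout tumours lay above every intact one and the groups overlapped. Reck, the membrane-anchored regulator of MMPs, was at 6.34, 6.92, 7.40, 6.84 and 7.66 in the intact tumours and 7.06, 7.27, 6.52 and 6.68 in the Itgb1 knockouts. Its Itgb3 knockout values were 7.49, 6.82, 6.75 and 6.59. The labelled double knockouts ran from 6.63 to 7.34 (median 7.02), inside the intact range (difference −0.03, SE 0.217, limma adjusted p = 0.958).

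The enzymes were set against their inhibitors and partners over the 19 tumours. On deviations from group means Mmp2 followed Timp2 (r = 0.608, rho = 0.737, adjusted permutation p = 0.0198 and 0.00546) and Mmp9 followed Timp1 (r = 0.709, rho = 0.681, adjusted permutation p = 0.00840 and 0.00941). Mmp14 and Timp2 were correlated over all tumours (r = 0.547, rho = 0.539, adjusted permutation p = 0.0231 and 0.0270), less so in r than in rho within groups (r = 0.341, rho = 0.600, adjusted permutation p = 0.308 and 0.0210). Mmp14 and Reck gave no relation past the threshold (r = 0.0157, rho = −0.00702, adjusted permutation p = 0.950 and 0.982). Adamts4 and Timp3 gave r = 0.344, rho = 0.298, adjusted permutation p = 0.171 and 0.247 over all tumours and r = −0.0443, rho = −0.161, adjusted permutation p = 0.950 and 0.628 on deviations. Without the 2 tumours farthest from the median the within-group r was 0.710 for Mmp2 with Mmp14, 0.610 for Mmp2 with Timp2, 0.530 for Mmp9 with Timp1 and 0.674 for Plau with Plaur. Mmp9 reached the filter value on 8 of 19 arrays. None of the pairs was adjusted for the fibroblast and macrophage marker means given below, which Mmp14, Timp1 and Timp2 also followed within groups. Mmp2, Mmp9 and Plau were not set against those means.

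**Figure D3:**
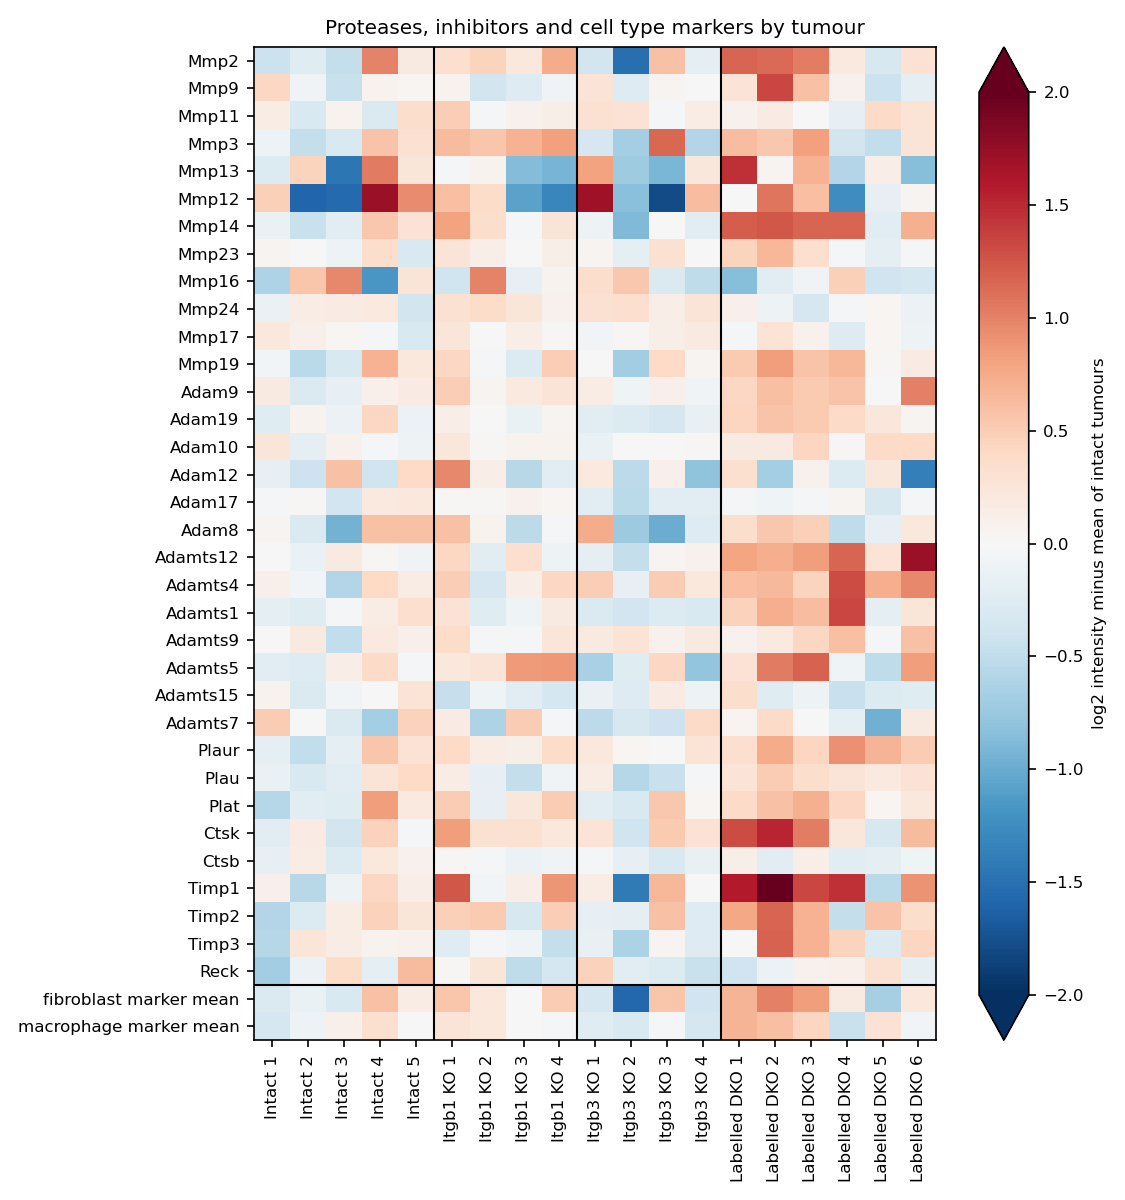
Level of each tested member in each tumour (columns, by group) minus the mean of the 5 intact tumours, on the log2 scale, with the fibroblast and macrophage marker means in the last rows. Colours stop at ±2. Labelled double knockout replicates 1 to 3 are high for Mmp14, Ctsk, Timp1 and the fibroblast markers, and replicate 5 is low for them. Replicate 4 is high for Mmp14 (level 8.98) and Timp1 (7.06) at a fibroblast marker mean of 0.19. Adamts12 is above the intact mean in all 6.

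Stromal markers differed between tumours and moved with several members. In bulk tumour RNA, fewer cells of a type and less RNA per cell cannot be told apart. The mean of the 18 fibroblast markers tested, relative to intact tumours, ran from −0.30 to 0.59 in intact tumours, 0.01 to 0.56 in Itgb1 knockouts, −1.57 to 0.55 in the Itgb3 knockouts and −0.67 to 1.00 in the labelled double knockouts. In the last group 3 of 18 markers were higher than in intact tumours at an unadjusted p under 0.05, against 11.2% of all genes. Of these markers 0 were lower, against 5.68% of all genes, and 0 passed the adjusted limma test. The lowest tumour there was replicate 5, the tumour low for Mmp14, Timp1 and Ctsk, and the −1.57 belonged to Itgb3 knockout replicate 2, the lowest of all 19 for Mmp14, Timp1, Mmp2, Ctsk, Adamts12, Adamts1 and Plau. The mean of 18 macrophage markers ran from −0.34 to 0.32 in intact and −0.44 to 0.69 in labelled double knockout tumours (4 of 18 higher, 0 lower). None of the fibroblast or macrophage markers is a member of the set.

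Of the other marker lists, no gene passed the adjusted limma test against intact tumours. For the counts below, the share over all genes at an unadjusted p under 0.05 was 11.2% higher and 5.68% lower. The pericyte and smooth muscle mean ran from −0.17 to 0.37 in intact and 0.13 to 0.74 in labelled double knockout tumours (3 of 12 higher at an unadjusted p under 0.05). Endothelial markers ran from −0.19 to 0.33 and from −0.06 to 0.60 (4 of 13 higher). For neutrophil markers the ranges, −0.25 to 0.23 and 0.32 to 1.09, did not overlap, but the mean rests on the 4 of 13 markers that passed the filter (2 of 4 higher) and mostly on Ltf, with a difference of 1.65 (limma adjusted p = 0.121) beside 0.17 for Lcn2, 0.22 for Csf3r and 0.20 for Cxcr2. Ltf and Lcn2 are also made by mammary epithelium. The basal list shares Acta2, Myh11 and Cnn1 with the pericyte and smooth muscle list, and its Krt5, Krt14 and Trp63 were not among the genes tested. Luminal markers (1 of 14 higher), basal markers (1 of 8 lower) and adipocyte markers (0 of 8) overlapped between the groups. The part of these cells in the members' differences was not tested beyond the fibroblast and macrophage means that follow.

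Within groups, 4 members followed the fibroblast mean closely in an analysis chosen after seeing the data (17 members against 2 marker means, 34 relations, n = 19 tumours). For Timp1 the correlation was r = 0.886, rho = 0.844, adjusted permutation p = 0.000255 and 0.00125, r = 0.758 without the 2 tumours farthest from the median. Ctsk gave r = 0.852, rho = 0.865, adjusted permutation p = 0.000255 and 0.00125, r = 0.763 without the 2 tumours farthest from the median. Mmp14 gave r = 0.847, rho = 0.851, adjusted permutation p = 0.000255 and 0.000340, r = 0.725 without the 2 tumours farthest from the median. Mmp3 gave r = 0.832, rho = 0.805, adjusted permutation p = 0.00129 and 0.00156, r = 0.828 without the 2 tumours farthest from the median. Timp2 followed the macrophage mean (r = 0.861, rho = 0.823, adjusted permutation p = 0.000255 and 0.00156, r = 0.822 without the 2 tumours farthest from the median). Timp2 also followed the fibroblast mean by rank (r = 0.555, rho = 0.779, adjusted permutation p = 0.0942 and 0.00408), as did Adam19 (r = 0.488, rho = 0.674, adjusted permutation p = 0.0869 and 0.0193). Adam17 passed in r alone (r = 0.636, rho = 0.458, adjusted permutation p = 0.0367 and 0.159), with r = 0.376 without the 2 tumours farthest from the median. Ctsk passed in rho alone against the macrophage mean (r = 0.596, rho = 0.658, adjusted permutation p = 0.164 and 0.0450). The remaining relations did not pass, Timp3 having r = 0.616 with the fibroblast mean (adjusted permutation p = 0.0670) and Adamts1 r = 0.448 (0.184). Against that mean Adamts12 gave r = 0.293, rho = 0.0614, adjusted permutation p = 0.513 and 0.873, r = −0.214 without the 2 tumours farthest from the median, and r was 0.341 for Adamts4, 0.190 for Plaur, 0.444 for Adam9, −0.167 for Adam10 and −0.0946 for Reck.

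**Figure D4:**
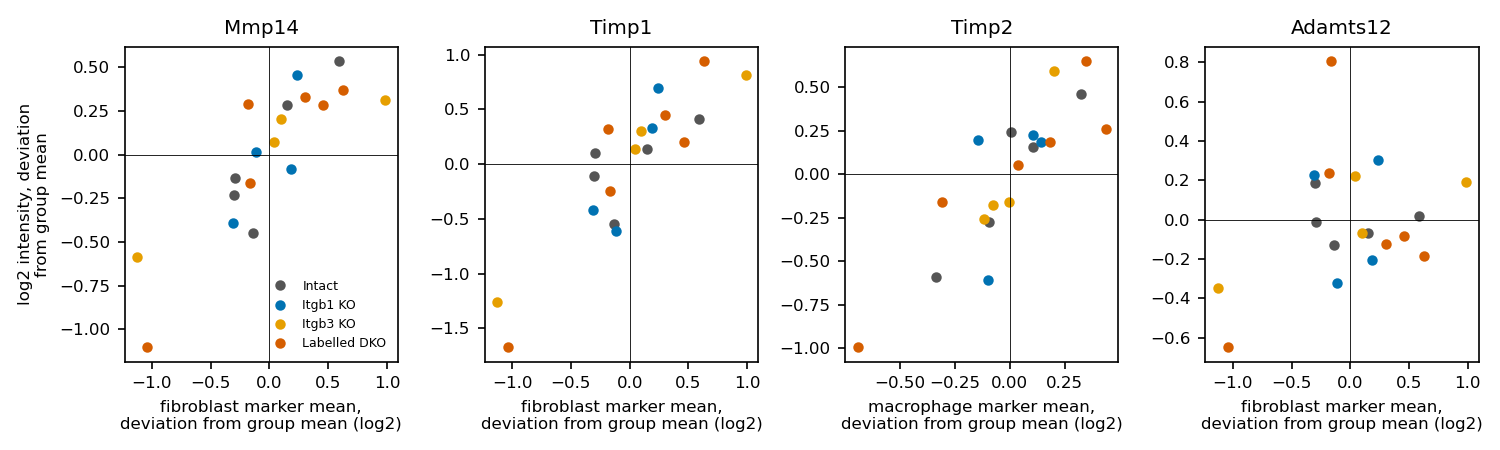
Each point is a tumour, coloured by group, with the marker mean on the x axis and the member's log2 intensity on the y axis, both as deviations from the tumour's group mean. Mmp14 and Timp1 rise with the fibroblast mean (r = 0.847 and 0.886), Timp2 rises with the macrophage mean (r = 0.861), and Adamts12 has r = 0.293 with the fibroblast mean.

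With both marker means as covariates the difference between labelled double knockout and intact tumours was about as large for Adamts12 (0.96, limma adjusted p = 0.0605), Adamts4 (0.83), Plaur (0.59), Adam9 (0.52), Adamts1 (0.53) and Adam10 (0.27). It was smaller for Adam19 (0.27 from 0.37), Mmp14 (0.66 from 0.88), Timp1 (0.80 from 1.14), Ctsk (0.39 from 0.73), Timp3 (0.27 from 0.41) and Timp2 (0.15 from 0.51). No member passed in that fit, which called 11 of all 14231 genes in place of 55.

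The single knockouts showed no member past the adjusted test. In the Itgb1 knockouts 0 members passed against intact tumours (0.00703% of all genes did), and at an unadjusted p under 0.05 limma gave 0 higher and 0 lower, against 3.3% and 1.56% of all genes. The smallest p values belonged to Mmp3 (0.68, SE 0.334), Mmp24 (0.25, SE 0.123) and Adamts15 (−0.28, SE 0.148), each with a limma adjusted p of 0.982. Adamts15, an ADAMTS protease of versican, was at 4.83, 4.48, 4.71, 4.77 and 5.05 in the intact tumours, 4.30, 4.68, 4.55 and 4.42 in Itgb1 knockouts, 4.64, 4.50, 4.92 and 4.67 in the Itgb3 knockouts and 4.32 to 5.12 (median 4.52) in the labelled double knockouts. The groups overlapped. As in the labelled double knockouts, 26 of the 34 differences were above 0, against 55.9% of all genes, and both comparisons share the intact tumours. The median member difference was 0.12 against 0.02 over all genes.

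In the Itgb3 knockouts 0 members passed (0% of all genes), with 1 higher and 1 lower at an unadjusted p under 0.05, against 3.34% and 2.8%. The lower one was Adam17 (difference −0.30, SE 0.119, limma adjusted p = 0.796), where replicate 2, at 7.84, lay below every intact tumour. The higher one was Mmp24, a membrane-type MMP best known from neurons, at 5.01, 5.29, 5.31, 5.34 and 4.78 in intact tumours, 5.45, 5.51, 5.39 and 5.23 in Itgb1 knockouts, 5.45, 5.49, 5.28 and 5.41 in Itgb3 knockouts and 4.81 to 5.25 (median 5.08) in labelled double knockouts (difference 0.26, SE 0.123, limma adjusted p = 0.805). Both single knockout groups overlapped the intact range, and the labelled double knockouts lay within it. Adam19 had the next smallest p (difference −0.24, SE 0.129, limma adjusted p = 0.832). Adamts1 was the 1 member with all 4 tumours below every intact one, which 1.17% of all genes showed (difference −0.31, SE 0.213, limma adjusted p = 0.886). Differences were above 0 for 12 of the 34 members, against 47.6% of all genes. The median member difference was −0.10 against −0.01 over all genes.

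Labelled double knockout and Itgb3 knockout tumours differed in more members. Against the Itgb3 knockouts, 4 of 34 members passed, all higher, against 2.87% of all genes: Adamts12 (2.07-fold, difference 1.05, SE 0.208, limma adjusted p = 0.0163), Adam19 (1.52-fold, difference 0.60, SE 0.125, limma adjusted p = 0.0182), Mmp14 (2.27-fold, difference 1.18, SE 0.273, limma adjusted p = 0.0296) and Adamts1 (1.79-fold, difference 0.84, SE 0.205, limma adjusted p = 0.0348). At an unadjusted p under 0.05, 14 members were higher against 14% of all genes, and 1, Mmp24, was lower against 7.14%. All 6 tumours lay above all 4 Itgb3 knockouts for 5 members (Adamts12, Adam19, Adamts1, Plau and Plaur) against 5.88% of all genes, and below them for Mmp24 (−0.34) against 3.07%. Of these, Plau (difference 0.54, SE 0.163, limma adjusted p = 0.0746) and Plaur (difference 0.47, SE 0.166, limma adjusted p = 0.114) did not pass. Timp1 did not pass either (difference 1.29, SE 0.429, limma adjusted p = 0.0975). The comparison uses the same labelled double knockout tumours as the one with intact tumours. By label only Itgb1 separates these groups, but both targeted transcripts differed between them. Itgb1 was lower in the labelled double knockouts (difference −1.72, limma adjusted p = 0.00055) and Itgb3 was higher (difference 1.13, limma adjusted p = 0.0223). Their parts in the members' differences cannot be told apart.

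Stromal markers also differed in this comparison: 10 of 18 fibroblast markers were higher at an unadjusted p under 0.05 (median 0.78), against 14% of all genes. Of 18 macrophage markers 10 were higher. The adjusted test was passed by 2 of the 18, Adgre1 (0.98, limma adjusted p = 0.0163) and Csf1r (0.98, limma adjusted p = 0.0341), and by 0 of 18 fibroblast markers, against 2.87% of all genes. The 4 member calls rest on few tumours, as do the calls over all genes. The number of members called was 0 without Itgb3 knockout replicate 1 or 2, 1 without Itgb3 knockout replicate 3 or 4, 2 without labelled double knockout replicate 1, 2 or 3, and 7 without its replicate 5. All genes called, 408 in the main fit, were 56, 119, 126 and 66 without Itgb3 knockout replicates 1 to 4. They were 132, 227 and 289 without labelled double knockout replicates 1 to 3 and 453 without its replicate 5. With the fibroblast and macrophage means as covariates 0 members passed, in a fit that called 4 of all 14231 genes in place of 408. The differences there were 1.10 for Adamts12, 0.80 for Adamts1, 0.69 for Mmp14 and 0.42 for Adam19. The median over the members became 0.08 in place of 0.36. Ctsk turned from 0.56 to −0.16 there, and Timp1 went from 1.29 to 0.53.

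Against the Itgb1 knockouts no member passed (0 of 34, against 0.0211% of all genes). At an unadjusted p under 0.05 limma gave 6 higher, against 7.27%, and 1 lower, against 4.99%. Adamts12 (difference 0.81, SE 0.208, limma adjusted p = 0.142), Adamts4 (difference 0.60, SE 0.207, limma adjusted p = 0.246) and Adam19 (difference 0.36, SE 0.125, limma adjusted p = 0.254) had the smallest p, each with 5 of 6 tumours above every Itgb1 knockout. The others were Timp3 (0.62), Plau (0.45) and Adamts1 (0.49) on the higher side and Mmp24 (−0.32) on the lower. For Plau all 6 tumours lay above all 4 Itgb1 knockouts, which 1.57% of all genes showed.

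Whether the label's difference exceeded the sum of both single knockout differences was tested as an interaction. The Itgb3 transcript in the labelled double knockouts was at the intact level (difference 0.01, limma adjusted p = 0.986). The sum therefore includes an Itgb3 knockout difference that these tumours may not share, which limits every value below. No member passed (0 of 34, against 0% of all genes), with 6 above at an unadjusted p under 0.05, against 7.53%, and 1 below, against 4.96%. Mmp24 was the 1 below (difference −0.58, SE 0.171, limma adjusted p = 0.225), and Adam19 (difference 0.59, SE 0.180, limma adjusted p = 0.232) and Adamts12 (difference 0.94, SE 0.30, limma adjusted p = 0.239) led those above. Plau (0.67), Adamts1 (0.80), Timp3 (0.87) and Mmp14 (0.84) followed. The median member value was 0.23 against 0.01 over all genes.

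Genes that act with the set were counted from lists of other proteases, other inhibitors, inducers of protease genes and matrix substrates. In the labelled double knockouts against intact tumours 0 genes of the 4 lists passed. Of 22 inducers tested, 8 were higher at an unadjusted p under 0.05 and 0 lower, with a median difference of 0.30. For this and the next lists, the share over all genes was 11.2% higher and 5.68% lower, with a median of 0.03. Elf3, an epithelial ETS factor (1.07, SE 0.30, limma adjusted p = 0.103), Tgfb2, a TGF-beta ligand (0.90, SE 0.274, limma adjusted p = 0.125), the AP-1 subunit gene Fosb (0.57, SE 0.191, limma adjusted p = 0.148) and the interleukin 1 receptor gene Il1r1 (0.97, SE 0.329, limma adjusted p = 0.153) led them. The mean over the 22 inducers tested, relative to intact, was 0.30 to 0.43 in the 6 labelled double knockouts, and reached at most 0.21 in the intact tumours, 0.17 in the Itgb1 knockouts and −0.03 in the Itgb3 knockouts. Differences from intact were above 0 for 19 of the 22, against 55.9% of all genes, and below 0 for Tgfb3, Il1a and Il1b. The list was chosen with earlier results of these data known.

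Of 33 other proteases tested, 6 were higher and 0 lower at an unadjusted p under 0.05 (median 0.12). Bmp1, the procollagen C-proteinase (0.87, SE 0.229, limma adjusted p = 0.0844), Htra3, a secreted serine protease (0.63, limma adjusted p = 0.105), the lysosomal Ctsc (0.32, limma adjusted p = 0.188) and the kallikrein gene Klk10 (1.27, limma adjusted p = 0.240) had the smallest p. Of 20 other inhibitors, 4 were higher and 2 lower (median 0.28): the serine protease inhibitor genes Tfpi2 (0.80) and Serpina3n (0.78) and the collagen chaperone gene Serpinh1 (0.42) had positive values, and Spock1, a testican, had −0.51. Of 18 substrates, 4 were higher and 0 lower (median 0.40), namely Hspg2, which encodes perlecan (0.60), Col4a2 of the basement membrane (0.57), Tnc, tenascin C (1.17), and Col6a1 (0.57). Some substrates, such as Col1a1, are also fibroblast markers.

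Against the Itgb3 knockouts the adjusted limma test was passed by 4 of 18 substrates, 2 of 22 inducers and 1 of 33 other proteases, all higher in the labelled double knockouts, against 2.87% of all genes. None of the 20 other inhibitors passed, 6 being higher and 0 lower at an unadjusted p under 0.05, against 14% and 7.14% of all genes. The substrates were Hspg2 (0.88, limma adjusted p = 0.010), Lamb1, a laminin chain (0.86, limma adjusted p = 0.0163), Col4a2 (0.98, limma adjusted p = 0.0163) and Nid1, nidogen (0.88, limma adjusted p = 0.0376), all of the basement membrane. The inducers were Ets1 (0.48, limma adjusted p = 0.0409), an ETS factor, and Rela (0.49, limma adjusted p = 0.0454), an NF-kappaB subunit. Adamts6, an ADAMTS protease outside the set, was the 1 protease (0.48, limma adjusted p = 0.0497). Substrates had a median difference of 0.85 in this comparison. Of them 11 of 18 were higher at an unadjusted p under 0.05, beside 10 of 18 fibroblast markers and 14% of all genes. With the marker means as covariates 4 genes in all passed in this comparison.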

How the data were processed

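The authors deposited 1 table of log2 expression values for 41345 probe sets on 19 arrays, made with Affymetrix Expression Console per the submitters' processing notes; for its version and for how background was removed and probes summarized, nothing is given in the labels or headers. The values (0.54 to 13.7) were used as deposited. Probe sets were named through the platform annotation (23521 with 1 symbol, 1814 with several, 16010 with none), and the 36 members on the array matched a RefSeq gene table of GRCm38.p6. The 14231 genes that passed the filter were fitted in limma 3.58.1 (R 4.3.3) with 1 mean per group over all 19 arrays (lmFit, eBayes, two-sided, 15 residual degrees of freedom) and Benjamini-Hochberg adjustment over all of them. A difference is on the log2 scale, and a fold is 2 to its power.

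Full values are given for members past an adjusted p of 0.05 in any comparison, the 10 with the smallest p in the labelled double knockouts against intact, the 3 with the smallest p in each other comparison, and the TIMPs and Reck. From the other lists those that passed and up to 4 with the smallest p against intact are named. Members and lists were chosen with earlier results of these data known. Correlations used 100000 permutations (within groups for deviations). The fit was tested on simulated data. No array batch is given in the labels, so none was modelled. Alternatives were array scaling, the filter, the probe set rule, the groups fitted, array weights, moderation, a floor, 2 marker means as covariates and leaving out each tumour.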

Additional observations from a re-analysis of the deposited data

Results flagged for a closer look

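In 8 of 136 group tests of single members, 1 tumour lay apart from the others of its group, about the rate that chance gives (1 in 20 groups). In the labelled double knockouts replicate 5 was low for Mmp14 (7.59, next 8.53) and for Adam17 (8.05). Itgb3 knockout replicate 2 was low for Adam17 (7.84), and Itgb3 knockout replicate 3 was high for Timp2 (8.30). Timp2 was low in Itgb1 knockout replicate 3 (7.39), and Ctsk was high in Itgb1 knockout replicate 1 (6.01). Among the intact tumours replicate 3 was low for Adamts9 (4.56) and replicate 1 was low for Timp3 (6.96).

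The differences from intact tumours were also compared between the labelled double knockouts and the Itgb3 knockouts. The intact mean cancels there, so this repeats the limma comparison of these groups given above and is no separate result. Its 4 calls were Adamts12 (1.05), Adam19 (0.60), Mmp14 (1.18) and Adamts1 (0.84), against 2.87% of all genes. None held without Itgb3 knockout replicate 1 or 2, in fits that called 56 and 119 of all genes in place of 408.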

How the results depend on the processing

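Among the members named, 1149 values kept their direction and side of the threshold under an alternative, 48 no longer passed, 13 newly passed and 5 reversed. Most of these values belonged to differences that had not passed and so had no call to lose. Adamts12 against intact tumours held in 4 of 10 settings and 4 of 19 fits with a tumour left out. Against the Itgb3 knockouts the counts were 9 and 17 for Adamts12, 9 and 15 for Adam19, 8 and 12 for Adamts1, and 7 and 12 for Mmp14. Against intact tumours the 1 member past the adjusted test (Adamts12) became 0 with quantile normalization, no intensity filter, only the groups compared, array weights, trended robust moderation or the covariates, and 0 to 4 with a tumour left out. All genes called, 55 in the main fit, were 31, 27, 2, 31, 26 and 11 in these settings, in the same order. With a tumour left out they were 14 to 125. Against the Itgb3 knockouts the 4 members became 10 with centred arrays, 2 with only the groups compared, 9 with array weights and 0 with covariates, and 0 to 7 with a tumour left out. All genes called there, 408 in the main fit, were 1226, 448, 1568 and 4 in these settings, in the same order. With a tumour left out they were 56 to 459. The median member difference there was 0.0780 with covariates (0.361 without). With centring, the median of all genes shifted to 0.14 in that comparison and 0.08 against intact tumours, where the members' medians were 0.47 and 0.34. All genes called went from 338 higher and 70 lower to 1173 and 53 there, and from 42 and 13 to 87 and 13 against intact tumours. Members lower against intact tumours at an unadjusted p under 0.05 numbered 0 to 1 with a tumour left out. In the main fit 0 were lower, against 5.68% of all genes. Reck against intact tumours reversed to 0.0108 with centred arrays and ranged from −0.21 to 0.12 with a tumour left out. Ctsk against the Itgb3 knockouts reversed to −0.16 with covariates. On deviations from group means Adamts4 with Timp3 reversed (r = −0.0443) and Mmp14 with Timp2 fell to r = 0.341. No paired analysis was possible because the labels give no replicate numbers. The cause of these changes was not tested.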
